A study of Mus musculus with 8 samples.

Results

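Hepcidin and the genes that carry, import, store and export iron were followed in the whole pancreas of mice in which Gata6, a zinc finger transcription factor, had been targeted. The 10 genes were chosen by name, around the low level of hepcidin (Hamp) in this same comparison, and they are 10 of the 36432 genes in the expression tables. They are Hamp and Hamp2, transferrin (Trf), the transferrin receptor (Tfrc), Hfe, the iron transporters Slc11a2 and Slc40a1, ceruloplasmin (Cp) and the ferritin chains Fth1 and Ftl1. Since they were picked on this contrast, their values are given as a description and no p-value is printed for any of them. Where the number that pass a threshold is given, it is set beside the share of all genes and supports nothing.

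Poly(A) RNA was sequenced from 8 whole pancreases of mice aged 6 to 8 weeks, of mixed strain. The mice labelled Gata6-deleted carried Ptf1a-Cre +/KI with Gata6 lox/lox, and the controls carried Ptf1a-Cre +/KI alone, with 4 libraries in each group. All 8 animals therefore bear a Cre knocked into Ptf1a, whose promoter is active in pancreatic progenitors and acinar cells, so deletion is aimed at the pancreatic epithelium and leaves blood, fat and vessel cells untargeted. The unit is rescaled FPKM: the deposited FPKM (fragments per kilobase of transcript per library size) divided by 100000; "level" below always means that value. The level of Gata6 itself was 4.81, 5.12, 4.90 and 4.12 in the libraries labelled Gata6-deleted, and 2.76, 2.12, 2.62 and 2.45 in the controls. It was higher, not lower, under the label, and a gene-level value does not resolve the floxed exon, so the tested samples are called labelled libraries 1 to 4. The labels do not say more about how the samples were taken, and the tests below measure the spread between these 8 samples.

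The libraries differed in ways that touch every gene. Fragments implied by the deposited intervals, without 8 genes that lacked an estimate, numbered 4815834 to 7451431 per labelled library and 6020897 to 7304507 per control. Acinar markers were low in the labelled libraries: the median of 10 such genes stood at 0.716%, 43.2%, 8.85% and 58.8% of the control mean in labelled libraries 1 to 4. Labelled libraries 1 and 3 stand apart in this. Markers of macrophages summed to 223 to 858 in the labelled libraries and to 111 to 170 in the controls, and all 11 had a positive log2 difference. Markers of fat cells summed to 390 to 514 in the labelled libraries and to 78.3 to 229 in the controls, and all 10 were positive. The 7 fibroblast markers summed to 331 to 1248 in the labelled libraries and to 205 to 282 in the controls, and all were positive. Islet markers summed to 764 to 5977 in the labelled libraries and to 560 to 1481 in the controls, with 9 of 10 tested positive, and duct markers to 31.6 to 230.5 in the labelled libraries and to 62.5 to 76.6 in the controls; both were highest in labelled library 1. Summed endothelial markers ranged from 25.3 to 35.6 in the labelled libraries and from 29.4 to 36.1 in the controls. Summed haemoglobin and other red cell markers ranged from 154 to 329 in the labelled libraries and from 51.4 to 329 in the controls.

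Hepcidin is a peptide hormone, made mainly by the liver, that binds ferroportin (Slc40a1), the cellular iron exporter, and has it degraded, so that iron stays inside cells and leaves the blood. Its gene is switched on by iron through bone morphogenetic proteins and SMAD factors and by inflammation through interleukin 6 and STAT3. The mouse has a second copy, Hamp2, which is known to be expressed in the pancreas as well as in the liver and for which an effect on iron balance was not found in mice made to overexpress it. Inside cells, iron regulatory proteins bind short hairpins, the iron-responsive elements, in the messages of ferritin, ferroportin and the transferrin receptor. That binding sets translation or message stability according to how much iron the cell holds.

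Hamp, the hormone gene, was at 0, 2.26, 0.162 and 1.28 in labelled libraries 1 to 4, against 14.8, 13.1, 9.63 and 5.67 in controls 1 to 4. Every labelled library lay below every control, and labelled library 1 is listed at 0. The fragment numbers implied by the intervals are small. They were 5.54, 1.20 and 2.69 in labelled libraries 2, 3 and 4, and 24.0, 24.2, 16.1 and 13.5 in the controls. The log2 difference, on log2(level + 1) as everywhere below, was -2.71 with a standard error of 0.42. In whole tissue, fewer cells of a type and less RNA per cell cannot be told apart.

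Hamp2, the second copy, was the more abundant message by far in the control pancreas. Its level was 0, 39.6, 0.596 and 27.0 in labelled libraries 1 to 4, against 203, 231, 221 and 138 in the controls. The groups did not overlap, and the 4 labelled libraries split into a pair near 0 (labelled libraries 1 and 3) and a pair that kept a part of the signal (labelled libraries 2 and 4). Here the fragments are many: 129 and 76.3 were implied in labelled libraries 2 and 4, 5.80 in labelled library 3, and 440 to 571 in the controls. The log2 difference was -4.91 with a standard error of 1.18, so Hamp2 differed more than Hamp on this scale and also varied more among the labelled libraries. The ratio of the Hamp2 level to the Hamp level was 17.6, 3.68 and 21.0 in labelled libraries 2, 3 and 4 and 13.7 to 24.4 in the controls. The ratio in labelled libraries 2 and 4 lay within the control range, and in labelled library 3 fewer than 6 fragments were implied for each gene. With the 2 copies summed, the labelled mean was 0.0847 of the control mean, close to the 0.0855 of Hamp alone.

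The promoters are shown because the copies were low together. Each window is the 250 bases before the annotated start on the minus strand of chromosome 7 (RefSeq, GRCm38.p6), with searched motifs in capitals: Hamp at chr7:30944030-30944279 and Hamp2 at chr7:30924182-30924431.
Hamp: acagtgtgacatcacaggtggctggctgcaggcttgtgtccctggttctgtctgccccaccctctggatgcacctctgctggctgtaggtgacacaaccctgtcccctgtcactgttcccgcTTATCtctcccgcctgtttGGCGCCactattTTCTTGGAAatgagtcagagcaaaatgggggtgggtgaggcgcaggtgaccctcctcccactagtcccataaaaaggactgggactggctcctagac
Hamp2: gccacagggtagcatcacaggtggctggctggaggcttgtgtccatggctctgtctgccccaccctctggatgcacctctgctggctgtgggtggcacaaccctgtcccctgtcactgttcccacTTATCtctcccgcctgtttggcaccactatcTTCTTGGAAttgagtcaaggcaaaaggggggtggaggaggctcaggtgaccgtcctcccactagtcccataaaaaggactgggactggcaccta
The windows are near copies, with 227 of 247 aligned bases identical (91.9%). Searching both strands, TTCNNNGAA, the form of STAT binding sites, was found in both windows as TTCTTGGAA, 97 to 89 bases before the start of Hamp and 94 to 86 before that of Hamp2. GATAA, the core of GATA factor sites, was found in both as its reverse complement TTATC, 128 to 124 bases before the start of Hamp and 125 to 121 before that of Hamp2. GGCGCC, the core of the bone morphogenetic protein response element described in the human hepcidin promoter, was found in the Hamp window only, 109 to 104 bases before its start. The Hamp2 window carries the substitution G145A there, counted from 1 at the 5′ end of the Hamp window. Among 32536 promoter windows of this length, 7.04% hold TTCNNNGAA, 22.5% hold GATAA and 9.65% hold GGCGCC, so none of these matches is rare. A match of letters says nothing of binding in these mice. Cufflinks divides fragments between near copies by likelihood, and the longest annotated transcripts of the pair match at 388 of 410 aligned bases (94.6%), which makes the split between Hamp and Hamp2 less certain than their sum.

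The RNA of acinar markers was low in the same libraries as hepcidin. In labelled libraries 1 to 4, Hamp2 stood at 0%, 20.0%, 0.300% and 13.6% of its control mean, and Hamp at 0%, 20.9%, 1.50% and 11.9%. The elastase gene Cela1 stood at 0.151%, 34.0%, 3.45% and 43.2% in the same libraries, and Bhlha15, a transcription factor of mature acinar cells, at 0.788%, 61.2%, 7.58% and 63.7%. For all 4 genes labelled libraries 1 and 3 were lowest, while labelled library 2 was highest for both hepcidin genes and labelled library 4 for Cela1 and Bhlha15. The acinar markers were not alike. Ptf1a stood at 51.5% in labelled library 3 and 41.7% in labelled library 2, and Pnliprp1 at 109% in labelled library 4. The medians of the 10 markers were 43.2%, 8.85% and 58.8% in labelled libraries 2, 3 and 4. In each of the 4 labelled libraries, all 10 acinar markers stood at a higher share of their control mean than Hamp and Hamp2 did. In labelled library 1 this was bound to be so, since both hepcidin genes are listed at 0. In labelled library 3 Hamp rested on 1.20 implied fragments and Hamp2 on 5.80. In labelled libraries 2 and 4 the lowest marker stood at 34.0% and 34.1%. The same order held in control 4, where Hamp stood at 52.4%, Hamp2 at 69.7% and the lowest acinar marker at 72.2%. In control 1, 9 of the 10 markers stood above Hamp2 and none above Hamp, in control 3, 8 stood above Hamp and none above Hamp2, and in control 2 none stood above either. Each share is taken of the gene's own control mean, so no marker could stand above Hamp or Hamp2 in all 4 controls. The mixed order among controls is therefore not a measure for the labelled libraries. The part of acinar content in the level of hepcidin was not tested.

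**Figure D1:**
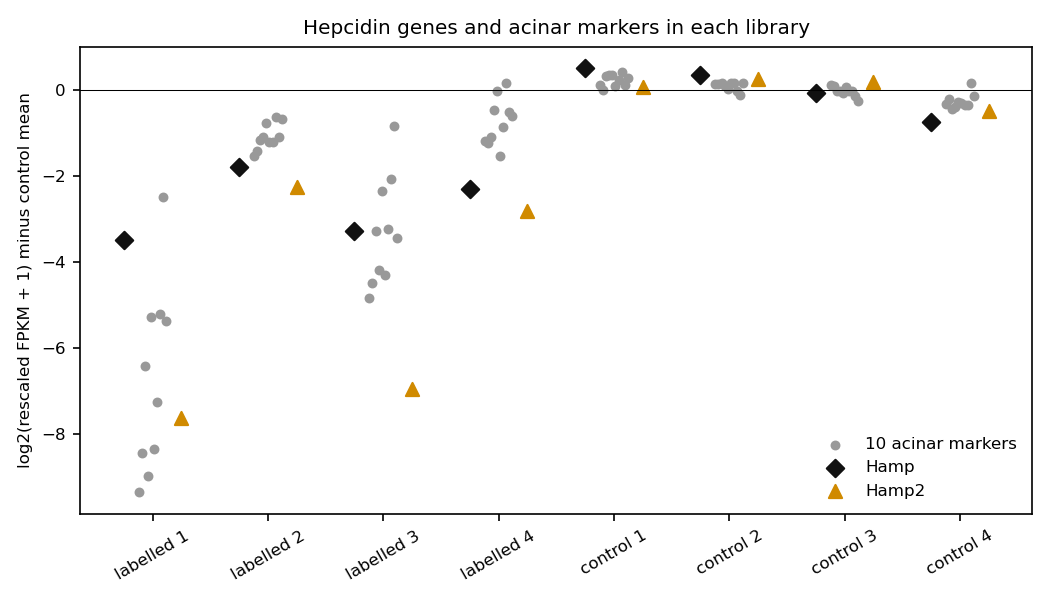
Difference of log2(rescaled FPKM + 1) from the control mean, on the vertical axis, for Hamp (diamonds), Hamp2 (triangles) and 10 acinar markers (grey points), in each of the 4 labelled and 4 control libraries. Labelled libraries 1 and 3 are lowest, with Hamp2 at -7.61 and -6.94, and Hamp cannot fall below its own floor of -3.49 at a level of 0.

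Liver is the main source of hepcidin in the body, so 12 hepatocyte markers were read in the same libraries. They were near 0: albumin (Alb) was at 0.0825, 1.11, 0.267 and 0.818 in the labelled libraries and at 1.26, 0.313, 0.334 and 0.509 in the controls, and Apoh was at 0 in all 8. Fga, Fgb and Fgg, the fibrinogen chains, were at 0 in all 4 controls. The whole list summed to 20.1 to 30.1 in the labelled libraries and to 18.6 to 23.2 in the controls, and most of that came from Cyp2e1 and from Ttr, which islet cells also make. Only these 2 of the 12 passed the expression minimum. The part of liver RNA in the hepcidin levels was not tested.

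The 5 other tested genes within 50000 bases of the pair, in the files' mm9 annotation, had log2 differences of -0.55 (Fam187b) to 0.30 (Gm4673). Hamp2 lies at chr7:31707391-31709200 and Hamp at chr7:31727390-31729036, 18189 bases apart. Usf2, the transcription factor gene next to Hamp, was at 18.7, 12.3, 15.4 and 19.1 in the labelled libraries and at 20.6, 19.7, 17.2 and 14.9 in the controls. Its groups overlapped, with a log2 difference of -0.15 (standard error 0.19, adjusted p = 0.592). Lsr, a lipoprotein receptor gene, had a log2 difference of 0.22 (standard error 0.14, adjusted p = 0.281). The neighbours were named after their values were seen.

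Of the 10 genes, Hamp alone passed an adjusted p under 0.05, lower, beside a background of 0.194% of the 11860 tested genes called lower and 0.219% called higher. Groups did not overlap for 3 genes that were lower (Hamp, Hamp2, Ftl1), beside 7.62% of all tested genes, and for 2 that were higher (Hfe, Cp), beside 10.9%. At an unadjusted p under 0.05, 17.9% of all tested genes were higher and 12.2% were lower. Nothing is read from the members' counts, since the contrast served to choose them. Without labelled library 4, 4 of the 10 passed (Hamp, Hamp2, Hfe and Cp), beside 2566 of the 11860 tested genes. The call on Hamp was lost in 16 of 21 alternatives; its log2 difference was -3.52 among libraries with BKD titles (labelled libraries 1, 3 and 4 against control 1) and -1.62 among those with ASK or BSH titles (labelled library 2 against controls 2 to 4). Without labelled libraries 1 and 3 it was -2.04. All 10 passed the minimum of a mean level of 1, and their log2 differences were positive in 5 and negative in 5, with a median of 0.01 against 0.10 over all tested genes.

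**Figure D2:**
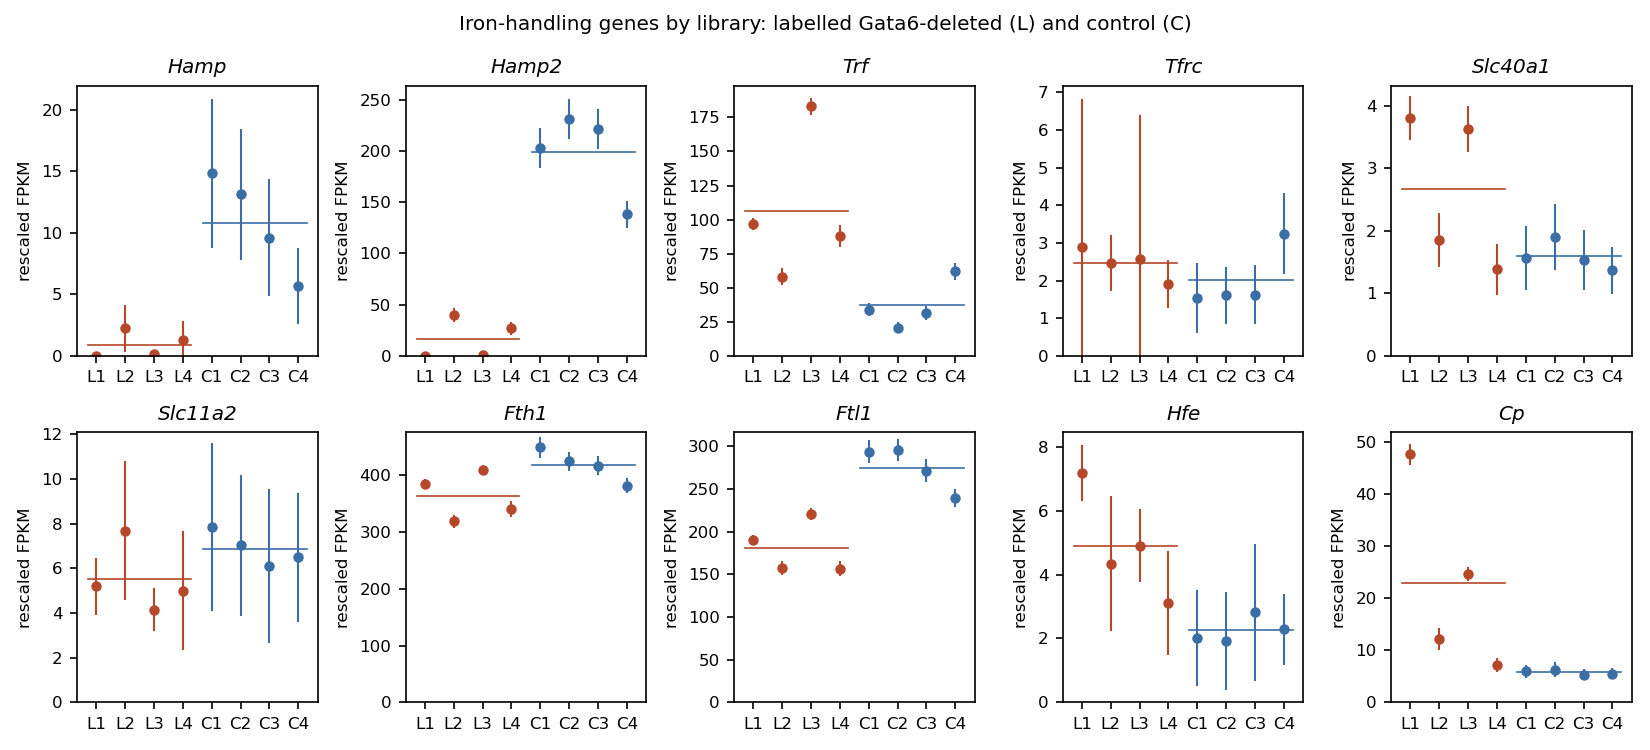
Rescaled FPKM of the 10 genes in labelled libraries 1 to 4 (L, red) and controls 1 to 4 (C, blue), with the deposited Cufflinks interval as bars and group means as lines; each panel has its own axis from 0. Hamp and Hamp2 are low in all 4 labelled libraries, Hfe and Cp are high in all 4, and Trf reaches 183 in labelled library 3.

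Transferrin (Trf), the iron carrier of plasma, was at 96.8, 58.2, 183 and 88.1 in the labelled libraries and at 33.9, 20.7, 31.7 and 62.2 in the controls. Only control 4 reached into the labelled range, above labelled library 2. The means were 107 ± 53.7 and 37.1 ± 17.7 (SD, n = 4 each), a ratio of 2.87, and the log2 difference was 1.48 with a standard error of 0.42. Fat cell markers were also highest among the controls in control 4, where they summed to 229, against 97.4, 78.3 and 166 in controls 1 to 3. The labelled libraries did not follow that order. Their fat cell markers summed to 514, 450, 390 and 462, lowest in labelled library 3, where Trf was highest. Whether fat, fibroblast or macrophage content had a part in the Trf level was not tested. Without labelled libraries 1 and 3, the log2 difference of Trf was 1.04.

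Tfrc, the receptor that takes up iron-loaded transferrin, was at 2.88, 2.46, 2.57 and 1.90 in the labelled libraries and at 1.54, 1.61, 1.63 and 3.25 in the controls. Controls 1 to 3 lay below all the labelled libraries, and control 4 lay above them. The deposited intervals are wide in labelled libraries 1 and 3, running from 0 to 6.83 and from 0 to 6.39. The log2 difference was 0.23 with a standard error of 0.19, and without control 4 it was 0.41 with a standard error of 0.14.

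Hfe, a membrane protein that binds the transferrin receptor and takes part in the sensing of plasma iron, was at 7.17, 4.34, 4.91 and 3.12 in the labelled libraries and at 2.02, 1.91, 2.82 and 2.29 in the controls. The groups did not overlap, but the intervals did: 0.680 to 4.96 in control 3 and 1.49 to 4.75 in labelled library 4. The fragments implied in the controls were few, at 7.13, 6.30, 6.94 and 17.1. The means were 4.88 ± 1.70 and 2.26 ± 0.405 (SD, n = 4 each), a ratio of 2.16, and the log2 difference was 0.82 with a standard error of 0.21. It stayed positive in both title sets, at 0.95 among the BKD titles and 0.69 among the ASK and BSH titles.

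Slc11a2, the divalent metal transporter that brings ferrous iron through membranes, was at 5.20, 7.69, 4.15 and 5.002 in the labelled libraries and at 7.86, 7.04, 6.11 and 6.49 in the controls. Labelled library 2 fell among the controls and the other 3 lay below them. The log2 difference was -0.30 with a standard error of 0.18, and without labelled libraries 1 and 3 it was -0.12.

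Slc40a1, ferroportin, the exporter on which hepcidin acts, was at 3.81, 1.86, 3.63 and 1.39 in the labelled libraries and at 1.57, 1.91, 1.54 and 1.37 in the controls. Labelled libraries 1 and 3 were high, and labelled libraries 2 and 4 lay within the control range. The log2 difference was 0.44 with a standard error of 0.24, and without labelled libraries 1 and 3 it was 0.01. Macrophages, which recycle iron from red cells, are known for high ferroportin. Their 11 markers summed to 858 and 756 in labelled libraries 1 and 3, and to 271 and 223 in labelled libraries 2 and 4; their part in the Slc40a1 level was not tested. The action of hepcidin on ferroportin is on the protein, which was not measured.

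Cp, ceruloplasmin, the copper enzyme that oxidises exported iron for loading on transferrin, was at 47.7, 12.2, 24.7 and 7.20 in the labelled libraries and at 5.97, 6.24, 5.28 and 5.54 in the controls. The controls were tight and every labelled library lay above them, labelled library 4 by the least. The means were 23.0 ± 18.0 and 5.76 ± 0.429 (SD, n = 4 each), a ratio of 3.99, and the log2 difference was 1.51 with a standard error of 0.49. Without labelled libraries 1 and 3 it was 0.63.

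Fth1, the heavy chain of ferritin, which oxidises iron for storage, was at 385, 319, 410 and 341 in the labelled libraries and at 449, 425, 417 and 382 in the controls. The groups overlapped through labelled library 1 and labelled library 3, which lay above control 4. The log2 difference was -0.21 with a standard error of 0.24. Per kilobase, Fth1 had the highest mean level of the 10 genes in both groups.

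Ftl1, the ferritin light chain, which aids formation of the iron core, was at 190, 157, 221 and 156 in the labelled libraries and at 294, 295, 271 and 240 in the controls. All labelled libraries were lower. The means were 181 ± 30.7 and 275 ± 26.0 (SD, n = 4 each), a ratio of 0.659, and the log2 difference was -0.61 with a standard error of 0.23. The ratio of the Fth1 level to the Ftl1 level was 2.03, 2.03, 1.86 and 2.18 in the labelled libraries and 1.53, 1.44, 1.54 and 1.59 in the controls.

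Ftl1 has a near-identical copy, Ftl2, with 545 of 552 aligned transcript bases identical (98.7%), and the copy showed the opposite difference. Ftl2 was at 74.4, 52.8, 79.5 and 58.1 in the labelled libraries and at 32.2, 28.1, 17.1 and 15.1 in the controls (log2 difference 1.53, standard error 0.29, adjusted p = 0.0723). The sum of both copies was 265, 210.1, 300.2 and 215 in the labelled libraries and 326, 324, 289 and 255 in the controls. On the sum the groups overlapped, and the ratio of means moved to 0.830. The values of Ftl1 and Ftl2 depend on how Cufflinks divided fragments between the copies. Their sum is not free of that division either, since FPKM divides the fragments of each copy by its own transcript length.

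The hairpins that tie these messages to cell iron are shown because the search below found them in 4 of the 10 genes. A search of UTRs in GENCODE M21 (GRCm38) for a C, 5 unspecified bases, CAGTG and 6 further unspecified bases, on the transcript strand, with arms that pair around the loop (G with T allowed), found such a site in 160 of 21901 genes (0.731%). The 17-base sites lie at chr19:9982738-9982754 on the plus strand (Fth1, 5′ UTR), chr7:45459785-45459801 on the minus strand (Ftl1, 5′ UTR), chr1:45925471-45925487 on the minus strand (Slc40a1, 5′ UTR) and, for the first of 4 sites in the 3′ UTR of Tfrc, chr16:32631225-32631241 on the plus strand. Each is printed within 30 bases, with the loop in capitals.
Fth1: ttcctgcttcaaCAGTGCttgaacggaacc
Ftl1: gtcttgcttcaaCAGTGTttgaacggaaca
Slc40a1: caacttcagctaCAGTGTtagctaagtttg
Tfrc: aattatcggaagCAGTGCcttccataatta
Some transcripts of Slc11a2 are also known to carry such a hairpin in the 3′ UTR, of a form with other pairing that was not searched for. In the 5′ UTR such a hairpin is known to hold back translation when iron is low, and in the 3′ UTR of Tfrc the hairpins are known to protect the message. RNA levels do not show the translation of Fth1, Ftl1 or Slc40a1. Tfrc is the gene of these 4 whose message level is known to follow cell iron, and its groups overlapped through control 4 alone.

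The direction of several of these genes depends on how the libraries are scaled. Hamp and Hamp2 were negative, and Trf, Tfrc, Slc40a1, Hfe and Cp positive, under the deposited, median-ratio, quantile, equal-sum and implied-fragment scalings. Tfrc was close to 0 under median-ratio (0.093) and quantile (0.015) scaling. Fth1 and Ftl1 turned positive under quantile, equal-sum and implied-fragment scaling, and Slc11a2 under the last of these and the equal-sum scaling. The median over all tested genes was itself 0.80 under the equal-sum scaling and 1.12 under implied fragments, against 0.10 as deposited. Relative to that shift, Ftl1 at 0.31 and 0.79 and Slc11a2 at 0.51 and 0.92 remained below the median gene under both. Fth1 at 0.72 and 1.19 and Tfrc at 0.88 and 1.20 lay near the median gene. Quantile scaling had no such shift, with a median of -0.03. There Fth1 at 0.73 lay above the median gene and Ftl1 at 0.012 lay near it.

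**Figure D3:**
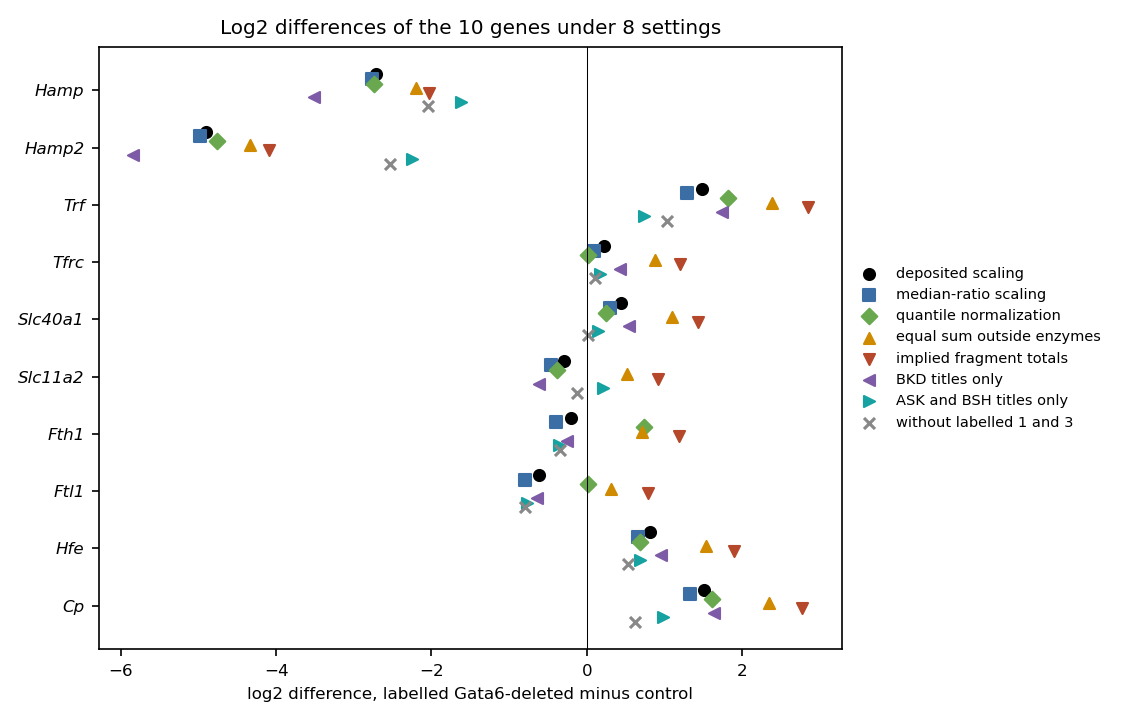
Log2 difference (labelled minus control) of each of the 10 genes, from top to bottom, under 5 scalings, in each title set and without labelled libraries 1 and 3. Hamp and Hamp2 lie left of 0 under all 8, Trf, Hfe and Cp right of 0, and Fth1, Ftl1 and Slc11a2 have points on both sides.

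Beyond the 10 genes, 90 other iron genes were listed by role, and 67 passed the expression minimum. None passed an adjusted p under 0.05 by limma, and the lowest was 0.0723, of Ftl2. At an unadjusted p under 0.05, 18 were higher and 7 lower, that is 18 and 7 of 67 beside 17.9% and 12.2% of all tested genes. Groups did not overlap for 14 higher and 5 lower of the 67, beside 10.9% and 7.62% of all tested genes. The median log2 difference of the 67 was 0.17, near the 0.10 of all tested genes. Adjusted p-values below are over all 11860 tested genes.

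Among genes that control hepcidin, 17 of 29 were tested, with a median log2 difference of 0.35. At an unadjusted p under 0.05, 7 were higher and 1 lower, beside 17.9% and 12.2% of all tested genes. The upstream parts of the liver circuit were scarcely read: Hfe2 (hemojuvelin) and Tfr2 (the second transferrin receptor) were each at 0 in all controls, and Bmp6, the iron-dependent inducer in liver, was at 0.461, 0.464, 0.449 and 0.299 in the labelled libraries and at 0.521, 0.523, 0.789 and 0.522 in the controls. Bmp6 did not reach the minimum for testing, although its groups did not overlap. Il6st, the signalling chain of the interleukin 6 receptor, was at 18.2, 9.49, 16.8 and 8.58 in the labelled libraries and at 5.96, 5.71, 6.67 and 7.14 in the controls (log2 difference 0.89, standard error 0.25, adjusted p = 0.104). Cebpa, a factor that binds the hepcidin promoter in liver, had a log2 difference of 0.74 (standard error 0.19, adjusted p = 0.0998), higher in all 4 labelled libraries than in any control. It is also a factor of fat and myeloid cells, whose markers were higher in the same libraries; their part was not tested. Furin, the protease that cuts prohepcidin and hemojuvelin, was at 6.32, 7.98, 6.59 and 8.52 in the labelled libraries and at 11.8, 12.7, 9.43 and 9.77 in the controls (log2 difference -0.51, standard error 0.15, adjusted p = 0.111). For the genes of SMAD1 and SMAD5, which carry the bone morphogenetic protein signal once phosphorylated, the log2 differences were 0.46 for Smad1 (standard error 0.13, adjusted p = 0.104) and 0.39 for Smad5 (standard error 0.12, adjusted p = 0.109). The activity of this pathway was not measured, and its part in the Hamp level was not tested. Bmp6, Hfe2, Tfr2, Smad1 and Smad5 were named after their values were seen.

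Of 17 genes of iron uptake and transport, 10 were tested, with a median of 0.47. At an unadjusted p under 0.05, 3 were higher and none lower, beside 17.9% and 12.2% of all tested genes. Steap4, a reductase of iron and copper, was at 17.8, 5.69, 14.1 and 9.29 in the labelled libraries and at 3.95, 2.98, 2.43 and 4.38 in the controls (log2 difference 1.44, standard error 0.32, adjusted p = 0.0885). Lrp1, the receptor that clears haem bound to hemopexin among many ligands, had a log2 difference of 1.15 (standard error 0.34, adjusted p = 0.110), with no overlap. Lcn2, lipocalin 2, which binds iron carried by bacterial siderophores, was at 29.0 and 17.5 in labelled libraries 1 and 3 and at 1.52 and 1.22 in labelled libraries 2 and 4, against 0.813 to 1.63 in the controls. The difference thus lay in labelled libraries 1 and 3 (log2 difference 1.69, standard error 0.83, adjusted p = 0.200).

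Of 10 genes that sense or store iron, 9 were tested, with a median of 0.23. Of these, 3 were higher and none lower at an unadjusted p under 0.05, beside 17.9% and 12.2% of all tested genes. After Ftl2, the most abundant were Pcbp2 and Pcbp1, chaperones that deliver iron to ferritin. Pcbp2 had a log2 difference of -0.23 (standard error 0.20, adjusted p = 0.432) and Pcbp1 one of -0.17 (standard error 0.17, adjusted p = 0.486), and the groups of both overlapped. Ftmt, mitochondrial ferritin, was at 0 in all 8 libraries.

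Of 21 genes of haem metabolism, 17 were tested, with a median of 0.04. Of these, 5 were higher and 1 lower at an unadjusted p under 0.05, beside 17.9% and 12.2% of all tested genes. Hp, haptoglobin, which binds free haemoglobin and is made by liver and fat, was at 77.2, 20.5, 90.0 and 34.8 in the labelled libraries and at 12.9, 3.56, 2.61 and 6.14 in the controls (log2 difference 2.93, standard error 0.56, adjusted p = 0.0780). Hmox1, the inducible haem oxygenase that frees iron from haem, was at 11.9, 4.03, 12.8 and 4.88 in the labelled libraries and at 1.89, 2.21, 2.25 and 2.19 in the controls (log2 difference 1.44, standard error 0.33, adjusted p = 0.0896). Blvrb, a biliverdin reductase of the same pathway, had a log2 difference of 0.88 (standard error 0.20, adjusted p = 0.0885) with no overlap. Hmox2, the constitutive haem oxygenase, had one of 0.28 (standard error 0.24, adjusted p = 0.429), and Urod, an enzyme of haem synthesis, one of -0.47 (standard error 0.50, adjusted p = 0.525). Hmox1 and Blvrb were named after their values were seen. Macrophages, which degrade haem, had higher markers in the same libraries, and their part was not tested.

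All 14 genes of mitochondrial iron and iron-sulfur assembly were tested, and 12 had a negative log2 difference, with a median of -0.36 against 0.10 over all tested genes. At an unadjusted p under 0.05 none was higher and 5 were lower, beside 17.9% and 12.2% of all tested genes, and none passed after adjustment. Iscu, the scaffold on which clusters are built, was at 10.4, 14.8, 11.6 and 21.3 in the labelled libraries and at 22.5, 21.0, 24.1 and 22.5 in the controls (log2 difference -0.64, standard error 0.22, adjusted p = 0.122). Nfs1, the desulfurase that supplies sulfur, had a log2 difference of -0.62 (standard error 0.14, adjusted p = 0.0885) and Fdx1, a ferredoxin, one of -0.93 (standard error 0.27, adjusted p = 0.108), both with no overlap. Isca1 had one of -0.59 (standard error 0.22, adjusted p = 0.130) and Bola3 one of -0.44 (standard error 0.28, adjusted p = 0.287), with overlapping groups. Nfs1 and Fdx1 were named after their values were seen. Acinar markers were lower in the same libraries, and their part was not tested. Iscu, Isca1, Bola3 and Nfs1 were positive under the equal-sum and implied-fragment scalings, with log2 differences of at most 0.41 and 0.85, under the medians of 0.80 and 1.12 of all genes there; Fdx1 turned positive, at 0.28, under the implied-fragment scaling only.

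**Figure D4:**
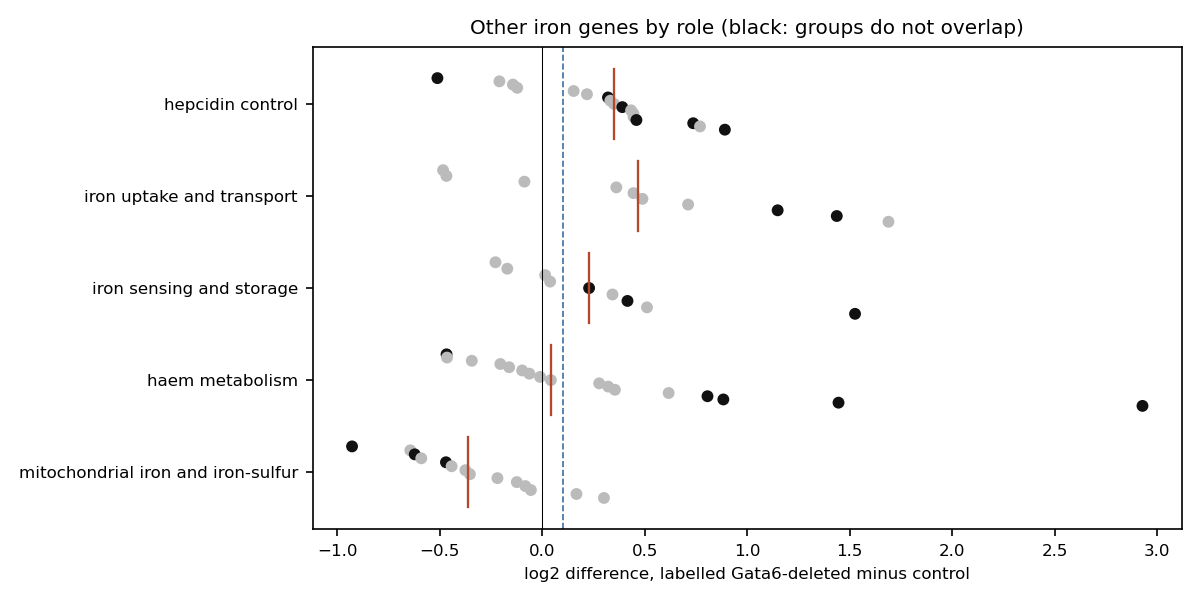
Log2 differences (labelled minus control, horizontal axis) of the 67 tested iron genes outside the 10, by role; black points are genes whose groups do not overlap, red bars are list medians and the dashed line is the median of all tested genes (0.10). Hp lies farthest right at 2.93, and the mitochondrial list lies mostly left of 0.

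Of the single libraries left out, labelled library 4 had the largest effect, on all genes as on these lists. Without it, 16 of the 67 passed an adjusted p under 0.05, beside 2566 of the 11860 tested genes (1200 lower and 1366 higher). Leaving out labelled library 2 gave 2 of the 67 (Steap4 and Blvrb), beside 97 of all tested genes, and the other 6 gave none of the 67. Without labelled libraries 1 and 3 together none of the 67 passed, although 14 were higher and 7 lower with no overlap, beside 12.7% and 10.5% of all tested genes.

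The genes most like Hamp were sought by the root mean square difference between log2 profiles over the 8 libraries, each set on its control mean. Of 11859 genes, the nearest were Rnf212 (0.497), a factor of meiotic recombination, Apip (0.519), an enzyme of methionine salvage, Ppp1r1b (0.519), an inhibitor of protein phosphatase 1, Dusp26 (0.524), a dual-specificity phosphatase, and Slc39a11 (0.561), a zinc transporter. Apip, for example, was at 4.14, 8.14, 5.93 and 5.82 in the labelled libraries and at 35.7, 36.2, 28.9 and 25.0 in the controls. Rnf212 was at 0, 3.05, 0 and 1.87 in the labelled libraries and at 6.54, 10.5, 7.28 and 6.13 in the controls, with labelled libraries 1 and 3 lowest, as for Hamp. Hamp2 ranked 4278, at 1.98, but this measure depends on level: at a level of 0, Hamp lies at -3.49 and Hamp2 at -7.61 from its control mean. As a share of the control mean the copies were close in labelled libraries 2 and 4, as given above. No acinar marker, iron gene or gene of the 10 was among the 5. The limit of level holds for abundant acinar enzymes too: in labelled library 1, Cela1 lay at -9.35, beyond the floor of Hamp. Their absence from the 5 therefore says nothing of likeness in proportion.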

How the data were processed

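Per the labels' protocols, poly(A) RNA of whole pancreas was made into TruSeq libraries and sequenced on a Genome Analyzer IIx. Alignment by TopHat2 2.0.4 with Bowtie, quantification by Cufflinks 2.0.1, CASAVA 1.8 and the build mm9 are listed in the submitters' processing notes. Strand and Cufflinks' scaling are not stated. The authors deposited gene FPKM with interval bounds, summing to 2.34e+10 to 1.86e+11 per library, so the values are not scaled to a fixed total; they were divided by 100000. The tables hold no counts. Fragments were implied from interval widths, taking the interval as 2 SD each side and all of it as counting error. For Tfrc, levels of 2.88 and 2.46 in labelled libraries 1 and 2 implied 2.14 and 44.1 fragments. The intervals thus hold more than counting error, and implied numbers are not observed counts. Entries sharing an ID (14 IDs) were summed, and 8 genes with status HIDATA, which lack an estimate in some libraries, were left out. Genes with a mean of at least 1 (11860) were tested with limma 3.58.1 (R 4.3.3, intensity trend, two-sided) on log2(rescaled FPKM + 1), Benjamini-Hochberg adjusted over all of them at 0.05; the added 1 understates changes of low genes. The step was tested on simulated data with the control spread in both groups, which does not cover a wider spread in the labelled libraries.

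The members and lists were chosen with earlier results of these data known. Text names the 10 members, the 3 most abundant genes of each iron list, Gata6, markers and the 5 genes nearest to Hamp; others are said to have been chosen after their values were seen. Promoters came from RefSeq (GRCm38.p6) for both hepcidin genes, and UTRs from GENCODE M21. Aligned with Biopython 1.88, sequences are not on the files' build, so no coordinates were converted. Title prefixes (BKD, ASK, BSH) were used as possible batches; what they mean is not given. Alternatives were other pseudocounts (0.1, 5), minimums (none, 5), scalings, limma without trend, title sets and libraries left out.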

Additional observations from a re-analysis of the deposited data

Results flagged for a closer look

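Several values stood far from the other 3 of their group, by the gap to the nearest value relative to the whole range. Of 66 groups of 4 read in this way, 5 were marked, and chance alone marks about 1 in 20. Tfrc was at 3.25 in control 4, above the other controls, which is what made its groups overlap. Urod was at 54.9 in labelled library 4, above the other labelled libraries. Hmox1 was at 1.89 in control 1, below a tight set of controls. Bmp6 was at 0.299 in labelled library 4, below the other labelled libraries, and at 0.789 in control 3, above the other controls.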

How the results depend on the processing

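The log2 difference of Hamp was negative in all 21 alternatives and lost its call in 16. It was -4.25 with a pseudocount of 0.1, -2.71 with no expression minimum and without the trend, -2.73 with quantile normalization, -2.20 with equal sums outside the digestive enzymes, -2.03 with implied fragment totals, -2.57 with the title prefix as a covariate, -3.52 in BKD titles, -1.62 in the ASK and BSH title set and -2.04 once labelled libraries 1 and 3 were left out. With single libraries left out it ran from -3.02 to -2.45. Over all genes, 26 were called higher and 23 lower; pseudocount 5 gave 14 higher, no minimum gave 11 lower and a minimum of 5 gave 15 lower. Quantile normalization gave 12 higher, equal sums 0 lower (22 higher), implied totals 6 higher and 0 lower, the prefix covariate 4 and 1, BKD titles 0 higher (16 lower), ASK and BSH titles 89 and 2, and leaving out labelled libraries 1 and 3 gave 11 and 2. Leave-one-out counts ran from 7 to 1366 higher and from 3 to 1200 lower. Other iron genes called were 1 (Hp) with equal sums, and 0 to 16 with a single library left out.

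Signs turned as follows, with all-gene medians of 0.80 (equal sums), 1.12 (implied totals) and -0.03 (quantile). Fth1 was 0.73, 0.72 and 1.19 and Ftl1 0.012, 0.31 and 0.79 under quantile, equal-sum and implied-total scaling; Pcbp1 was 0.029, 0.72 and 1.18. Under equal sums and implied totals, Slc11a2 was 0.51 and 0.92, Furin 0.33 and 0.75, Pcbp2 0.67 and 1.13, Urod 0.42 and 0.87, Iscu 0.23 and 0.68, Bola3 0.41 and 0.85, Isca1 0.25 and 0.69, and Nfs1 0.16 and 0.57. Fdx1 was 0.28 under implied totals. Hmox2 was -0.033 in BKD titles, Slc11a2 0.21 in ASK and BSH titles and Urod 0.065 without labelled libraries 1 and 3. The cause was not tested. With Ftl2 summed in, a choice made after seeing the data, the ratio of Ftl1 moved to 0.830 from 0.659. No paired analysis was possible because the labels give no replicate numbers. Low depth limits Hamp, whose intervals imply at most 5.54 fragments in any labelled library.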
